A study of Mus musculus with 20 samples.

Results

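The 38 genes described here are 17 glycolytic enzymes, 4 transporters of glucose or lactate, 2 regulatory Pfkfb enzymes, the 2 oxygen-regulated subunits of the hypoxia-inducible factor (HIF), and 13 other genes known as HIF targets. They were taken by symbol from a table of 32285 mouse genes, and all 38 were among the 15875 genes expressed well enough to be tested. RNA was sequenced from B16F10 tumours, a mouse melanoma line of wild type genotype grown in immunocompetent C57BL/6 mice, in 4 groups of 5 tumours. The groups had received control IgG, propafenone (a sodium channel blocker used against arrhythmia), an antibody that blocks PD-1, an inhibitory receptor of T cells, or both agents (the combination). Injections into the peritoneum began at a volume near 100 mm3, and tumours were excised on day 16. The sample labels do not say whether the propafenone tumours also received IgG, nor whether each tumour came from a separate mouse, so the p-values measure only the spread between these samples.

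Glycolysis breaks glucose down to pyruvate in the cytosol, and lactate dehydrogenase turns pyruvate into lactate, which leaves the cell with protons through monocarboxylate carriers. Under low oxygen, prolyl hydroxylases stop marking the HIF alpha subunits for destruction. HIF then binds short elements holding the letters ACGTG or GCGTG and raises transcription of glucose transporters, most glycolytic enzymes, the lactate exporter Slc16a3 and the pH enzyme Car9. Melanomas, like many tumours, are known for high glucose use.

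The HIF core letters were searched on both strands in the 250 bases before each transcript start, in RefSeq promoters of build GRCm38.p6. Of the 38 members 35 had an entry (not Slc2a3, Epas1 or Ndrg1). ACGTG was found in 20 of the 35 (57.1%), in 7 of 17 enzymes (41.2%) and in 8 of 12 other hypoxia targets (66.7%), against 18.5% of all 27025 genes, where a gene counts if any of its windows matches. By window the shares were 47.1% of 51 and 16.6% of 32851. CACGTG holds a match on each strand and counts as 2. GCGTG, which differs in its first letter and so never matches at the same position of a strand, was found in 22 of 35 (62.9%) against 30.9%. The median window of the members held 60.4% G and C against 52.4% over all windows, and no test was made. Of the 10 members called lower in combination than in IgG tumours (below), 6 held ACGTG (60.0%) and 6 held GCGTG (60.0%), near the shares of the 35. The following 4 stretches, each from a gene lower in the combination tumours, show where the letters lie, and not that they go with the fall. ACGTG, or CACGT where the match is on the other strand, is in capitals, and each stretch runs 5′ to 3′ on the strand of the gene. They lie at chr7:46845684-46845803 (plus strand) for Ldha, chr19:41911699-41911818 (plus strand) for Pgam1, chr11:120948933-120949052 (plus strand) for Slc16a3 and chr8:45999981-46000100 (minus strand) for Ankrd37.
Ldha: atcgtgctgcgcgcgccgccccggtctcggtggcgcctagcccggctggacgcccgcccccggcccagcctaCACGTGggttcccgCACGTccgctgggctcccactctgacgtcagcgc
Pgam1: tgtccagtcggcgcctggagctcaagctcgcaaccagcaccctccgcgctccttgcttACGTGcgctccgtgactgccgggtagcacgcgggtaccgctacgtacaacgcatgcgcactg
Slc16a3: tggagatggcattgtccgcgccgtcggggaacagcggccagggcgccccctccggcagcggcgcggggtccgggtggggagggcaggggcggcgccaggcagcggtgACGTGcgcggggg
Ankrd37: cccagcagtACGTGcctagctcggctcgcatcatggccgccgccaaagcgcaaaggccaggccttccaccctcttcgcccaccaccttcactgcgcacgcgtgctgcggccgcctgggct
The starts are those of RefSeq transcripts, and Ldha has 2 of them in the table. The Ldha, Slc16a3 and Ankrd37 stretches lie inside the outer bounds of these genes in the GENCODE annotation, which start further upstream, and the Pgam1 stretch lies before its gene. The Ldha stretch ends at the base before 1 of its RefSeq starts and holds 3 matches, 2 of them in CACGTG, and the others hold 1 each. Gpi1 and Tpi1, also lower in the combination tumours, held neither ACGTG nor GCGTG in the window. A match is a description of letters and does not show that HIF binds there.

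Total counts were 55985437 to 64514815 per tumour, and tumours of a group correlated at 0.958 to 0.986 in log2 CPM, the count relative to the size of each library. All 7 melanocyte markers were found in every tumour, at a summed level of 13410 to 21600 CPM, and none passed the test between combination and IgG tumours. Tumours differed in the RNA of other tissues. Hbb-bs, a globin chain of red blood cells, was above 1000 CPM in 5 tumours: IgG replicates 4 and 5, propafenone replicates 4 and 5, and anti-PD-1 replicate 2. The summed level of 14 skeletal muscle markers was 7.0 to 88.1 CPM in IgG, 15.5 to 79.0 in propafenone, 8.03 to 332 in anti-PD-1 and 44.2 to 615 in combination tumours. Counts of members called are given below with and without the 5 tumours above 1000 CPM of Hbb-bs. The tumours rich in muscle markers were not left out as a set.

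By TPM, the authors' measure of transcript abundance corrected for length, Aldoa and enzymes of the lower part of glycolysis were the most abundant members in IgG tumours. Aldoa stood at 5279 ± 236 TPM (mean ± SD, n = 5), Eno1 at 5093 ± 261, Pkm at 4410.4 ± 247, Ldha at 4020.0 ± 267, Pgk1 at 3898 ± 294 and Tpi1 at 3887 ± 171. The other hypoxia targets were scarcer, with a median of 113 TPM over the 13 against 1255 over the 17 enzymes, and Car12 at 1.30 ± 0.64 was the lowest member. Together the 17 enzymes made up 3.31 ± 0.150% of TPM in IgG, 3.23 ± 0.156% in propafenone, 3.06 ± 0.276% in anti-PD-1 and 2.82 ± 0.146% in combination tumours. Every combination tumour (2.67 to 3.01%) was below every IgG tumour (3.15 to 3.54%). Where a step has several isozymes, 1 form made up most of the TPM in IgG tumours. Eno1 held 99.8 ± 0.0653% of Eno1 and Eno2, Aldoa 97.7 ± 0.557% of Aldoa and Aldoc, and Ldha 87.4 ± 1.57% of Ldha and Ldhb. The shares were lower for Hk1, at 69.3 ± 2.97% of Hk1 and Hk2, and Pfkl, at 60.6 ± 5.26% of Pfkl, Pfkp and Pfkm. Of the HIF subunits, which are not isozymes, Hif1a held 94.7 ± 0.846% of Hif1a and Epas1. Gapdh and several other enzymes have near-identical pseudogene copies, and how reads that fit several places were counted is not given in the sources used here, so their levels are uncertain.

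Against IgG tumours, combination tumours were lower in 10 of the 38 members and higher in none, at an adjusted p under 0.05 in edgeR, where 4.88% of all genes tested were called (2.63% lower, 2.24% higher). The 10 were the enzymes Gpi1, Pfkm, Tpi1, Pgam1, Eno1, Pkm and Ldha, the lactate exporter Slc16a3, and the hypoxia targets Ankrd37 and Higd1a. The fitted value was below 0 for 36 of 38 members, against 51.8% of all genes, and the median log2 fold change was -0.37 against -0.01 over all genes. In 20 of 38 members every combination tumour was below every IgG tumour, a pattern that 7.21% of all genes showed, and in no member was every combination tumour above every IgG tumour (4.72% of all genes). At an unadjusted p under 0.05, 24 of 38 members passed. The share of all genes at that p was not worked out, here or for the later counts at an unadjusted p. The split of all calls depended on scaling, with 356 higher and 418 lower by TMM, 306 and 217 with DESeq2's size factors, and 368 and 112 by library totals. With limma on log2(TPM + 1), which changes the test and the unit too, it was 853 and 102. Under each of these 7 to 10 members were called, all lower.

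**Figure D1:**
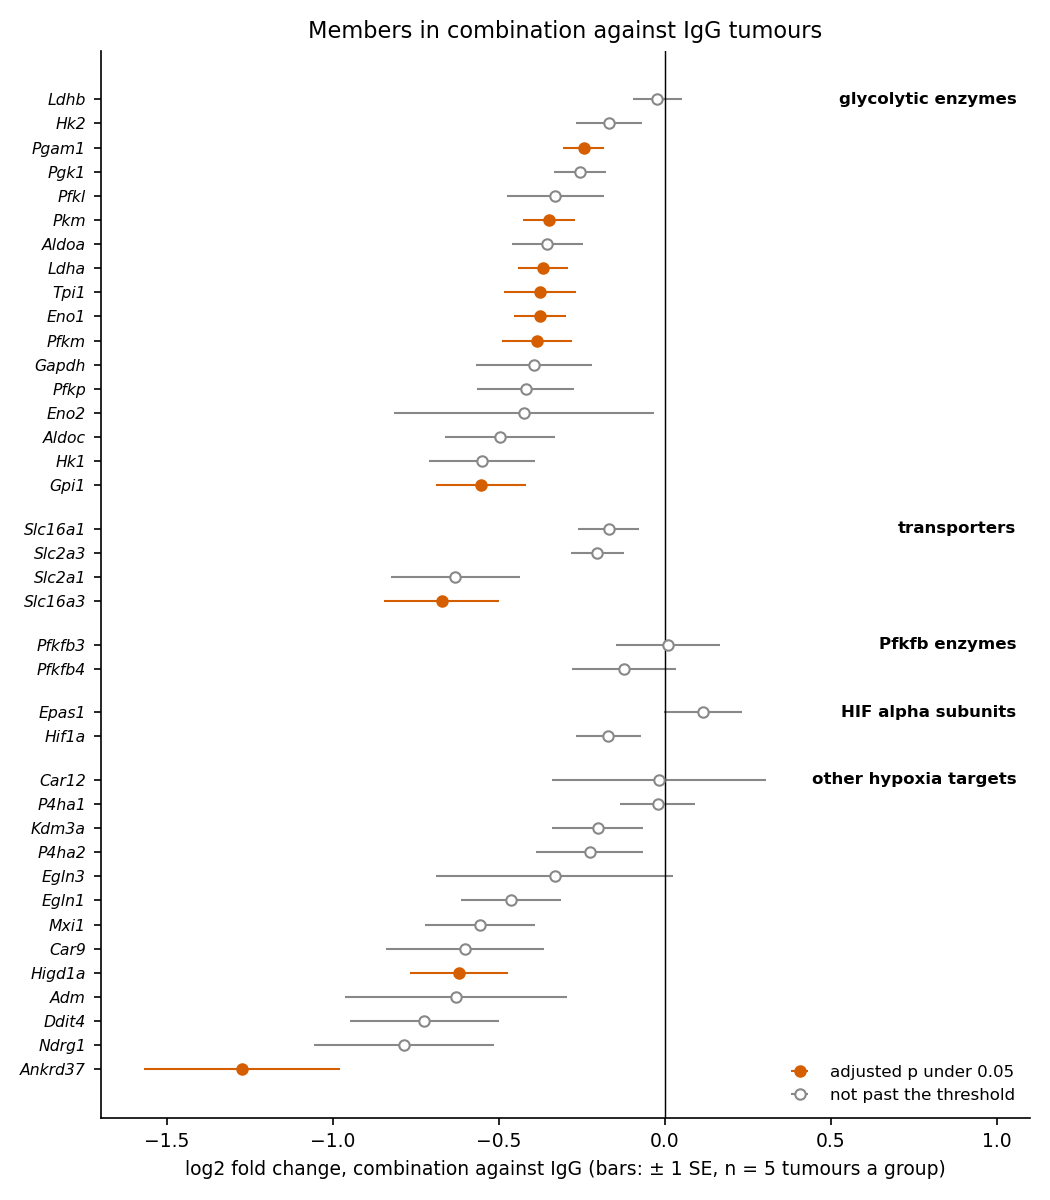
Fitted log2 fold change of each of the 38 members in combination against IgG tumours (x axis, bars ± 1 SE, 5 tumours a group), grouped by role and ordered by value. Filled orange points passed an adjusted p under 0.05 in edgeR: 7 enzymes, 1 transporter and 2 hypoxia targets, all below 0. Epas1 and Pfkfb3 were the members fitted above 0.

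Glucose enters through Slc2a1, the main glucose transporter of many tumours, at 289.8, 284, 351, 305 and 348 CPM in the IgG tumours and 209, 207, 261, 176 and 167 CPM in the combination tumours. The groups did not overlap, but with a log2 fold change of -0.63 ± 0.19 (± SE) Slc2a1 did not pass the test (edgeR adjusted p = 0.0622). Values in parentheses after a log2 fold change are adjusted p-values from the same edgeR fit. Slc2a3, a high-affinity glucose transporter, had -0.20 (0.126). The hexokinases, which trap glucose by phosphorylation, had -0.55 ± 0.16 for Hk1 (0.0524) and -0.17 ± 0.10 for Hk2 (0.314).

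Gpi1, the isomerase that follows hexokinase, had the largest fall among the enzymes called. It measured 2243, 2364, 2408, 2419 and 2549 CPM in IgG and 1786, 1484, 1944, 1504 and 1447 CPM in combination tumours. Every combination tumour was below every IgG tumour, and the level fell by 0.55 ± 0.14 on the log2 scale (adjusted p = 0.0292). Of the phosphofructokinases, which commit sugar to glycolysis, Pfkm, also the muscle form, measured 89.3, 84.4, 100.6, 88.6 and 83.5 CPM in IgG and 73.8, 61.0, 75.8, 65.9 and 65.4 CPM in combination tumours. It fell by 0.38 ± 0.11 (0.0433) without overlap, a call that held in 5 of 20 fits leaving out 1 tumour. Pfkm is the scarcest of the 3 forms, at 8.21 ± 0.910% of their TPM in IgG tumours, and the liver form Pfkl (-0.33, 0.176) and platelet form Pfkp (-0.42, 0.0902) did not pass. The aldolases, which split the sugar, had -0.35 for Aldoa (0.0566) and -0.50 for Aldoc (0.0791).

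Tpi1, which interconverts the products of aldolase, measured 2851, 2765, 2976, 3269 and 3424 CPM in IgG and 2409, 2488, 2519, 2229.9 and 2137 CPM in combination tumours. The groups did not overlap, and Tpi1 fell by 0.38 ± 0.11 (adjusted p = 0.0487), a call that held in 4 of 20 fits leaving out 1 tumour. The next enzymes, Gapdh (-0.39, 0.178) and Pgk1 (-0.26, 0.0593), the step that first yields ATP, did not pass. Pgam1, which moves the phosphate within phosphoglycerate, measured 1375, 1376, 1599.6, 1582 and 1583 CPM in IgG and 1320.0, 1301, 1329.8, 1193 and 1199 CPM in combination tumours. The highest combination tumour lay under the lowest IgG tumour, and the fall of 0.24 ± 0.06 (0.0320) was the smallest of the 10. Eno1, the main enolase, measured 4919, 4498, 5161, 5044 and 5502 CPM in IgG and 4164, 3914, 3988, 3693 and 3608 CPM in combination tumours, and fell by 0.38 ± 0.08 (0.0188), again without overlap. The scarce neuronal form Eno2 had -0.42 ± 0.39 (0.535). Pkm, pyruvate kinase, measured 4907, 4885, 5513, 5216 and 5555 CPM in IgG and 4305, 4196, 4292, 3875 and 3812 CPM in combination tumours. All combination tumours were lower, by 0.35 ± 0.08 (0.0225).

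Ldha, the lactate dehydrogenase form that favours lactate, measured 2991, 2899, 3294, 3404 and 3325 CPM in IgG and 2587, 2469, 2590.4, 2327 and 2362 CPM in combination tumours. The groups did not overlap, and the fall of 0.37 ± 0.07 on the log2 scale had the smallest p of the members (adjusted p = 0.0183). Ldhb, the form that favours pyruvate, had -0.02 ± 0.07 (0.886). Slc16a3, the lactate exporter of glycolytic cells, measured 487, 441, 626, 507 and 572 CPM in IgG and 353, 359, 393, 256 and 291 CPM in combination tumours. It fell by 0.67 ± 0.17 (0.0343), with no overlap. Slc16a1, the more widely expressed lactate carrier, had -0.17 ± 0.09 (0.276). The share of Slc16a3 in the TPM of both carriers was 75.2 ± 2.51% in IgG and 68.3 ± 4.39% in combination tumours.

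**Figure D2:**
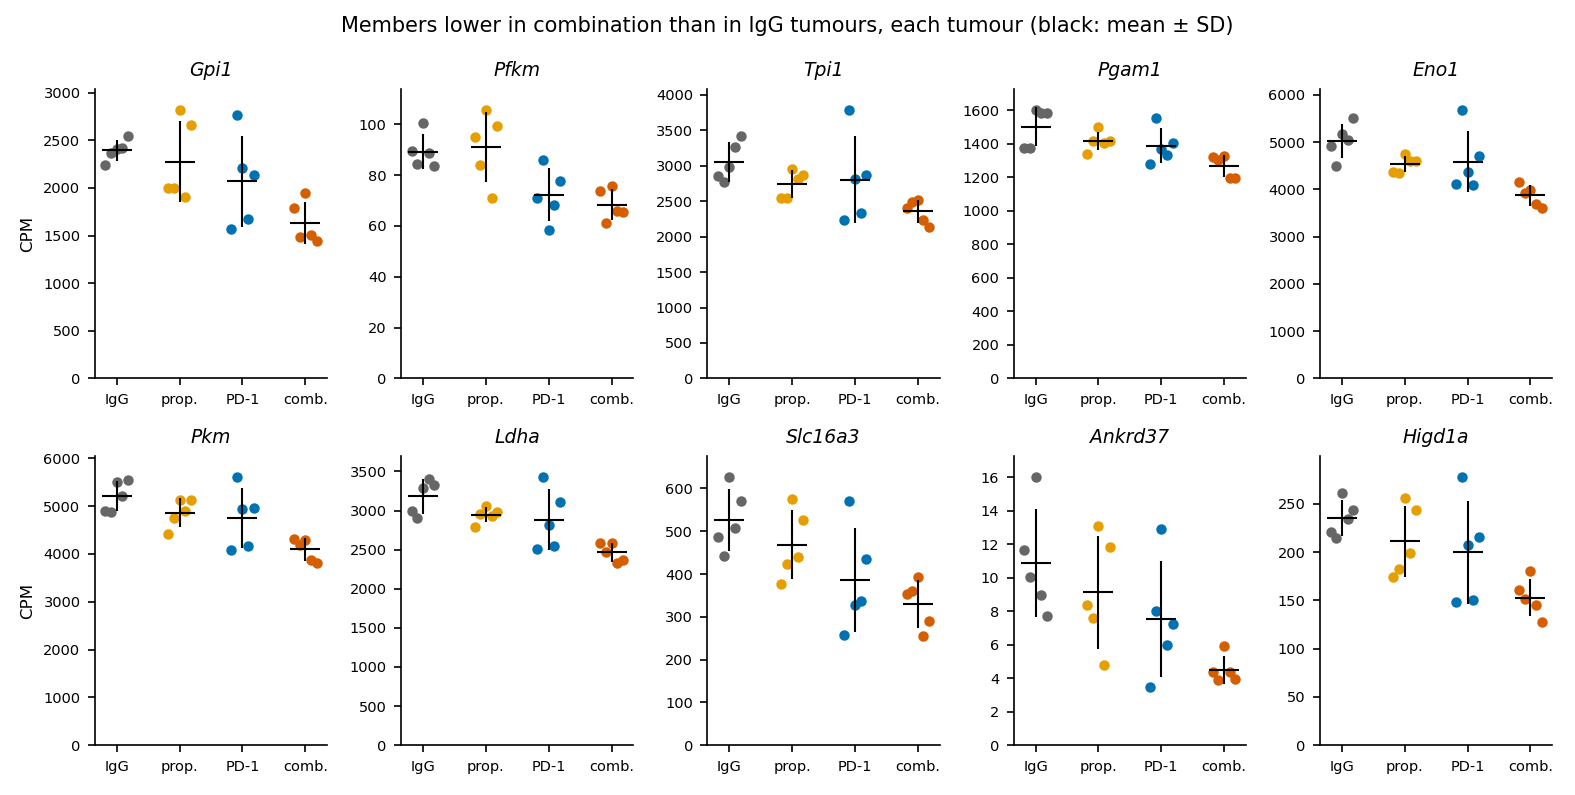
CPM of the 10 members lower in combination than in IgG tumours, 1 point a tumour in each of the 4 groups (axes start at 0; prop. is propafenone, PD-1 is anti-PD-1, comb. is combination), with the mean ± SD in black. In each panel every combination tumour lies below every IgG tumour, and the anti-PD-1 tumours spread over both.

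The Pfkfb enzymes set the level of fructose 2,6-bisphosphate, the activator of phosphofructokinase. Pfkfb4 measured 8.64, 6.28, 7.80, 5.39 and 5.60 CPM in IgG and 6.53, 4.95, 7.40, 6.54 and 5.53 CPM in combination tumours, which overlapped (-0.12 ± 0.16, adjusted p = 0.674), and Pfkfb3 had 0.01 (0.979). The HIF subunits, whose protein is regulated mainly by its stability, did not pass either. Hif1a measured 413, 381, 438, 431 and 397 CPM in IgG and 377, 359.7, 357, 368 and 370.5 CPM in combination tumours, without overlap but at -0.17 ± 0.10 (0.300). Epas1, which encodes the HIF-2 alpha subunit and is high in endothelium, had 0.12 ± 0.12 (0.582).

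Ankrd37, an ankyrin repeat gene used as a hypoxia marker, had the largest change of the 38. It measured 11.6, 10.04, 16.0, 8.99 and 7.74 CPM in IgG and 4.38, 3.87, 5.91, 4.40 and 3.95 CPM in combination tumours. The groups did not overlap, and it fell by 1.27 ± 0.29 on the log2 scale (adjusted p = 0.0254). Higd1a, a mitochondrial protein induced by hypoxia, measured 220.4, 215, 261, 234 and 243 CPM in IgG and 161, 151, 180.0, 145 and 127 CPM in combination tumours. Every combination tumour was lower, and it fell by 0.62 ± 0.15 (0.0267). The prolyl hydroxylase Egln1, the main oxygen sensor that marks HIF alpha, measured 329, 256, 342, 313 and 358 CPM in IgG and 237, 241, 267, 216 and 198 CPM in combination tumours. These overlapped, at -0.46 ± 0.15 (0.0737), and Egln3, an inducible hydroxylase, had -0.33 ± 0.36 (0.603).

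Car9, the carbonic anhydrase that hydrates carbon dioxide at the outer face of hypoxic cells, measured 544, 429, 627, 534 and 525 CPM in IgG and 401, 313, 463, 309.6 and 265 CPM in combination tumours. The groups overlapped and the change of -0.60 ± 0.24 did not pass (adjusted p = 0.133). The remaining targets also missed the threshold. The stress-responsive gene Ndrg1 had -0.79 (0.0924), the mTOR inhibitor Ddit4 -0.72 (0.0649), the peptide hormone Adm -0.63 (0.267), the Myc antagonist Mxi1 -0.56 (0.0566) and the histone demethylase Kdm3a -0.20 (0.384). The collagen prolyl hydroxylases P4ha1 (-0.02) and P4ha2 (-0.23) and the carbonic anhydrase Car12 (-0.02) had the smallest differences of this group with Kdm3a.

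The enzymes and the other hypoxia targets were compared side by side, with no test of their difference. Of the 17 enzymes 7 were called, all 17 were fitted lower and 12 did not overlap between groups, with a median log2 fold change of -0.38 (range -0.55 to -0.02). Of the 13 targets 2 were called, all 13 were fitted lower and 5 did not overlap, with a median of -0.56 (range -1.27 to -0.02). Over all genes tested 2.63% were called lower and 51.8% were fitted lower. In 7.21% every combination tumour was below every IgG tumour, and the median over all genes was -0.01. The targets had the larger median fall and fewer calls. Their values were less precise: the median SE was 0.23 for targets and 0.11 for enzymes, and the median coefficient of variation among IgG tumours was 15.9% and 7.63%. Every combination tumour was below every IgG tumour in the mean centred log2 CPM of both groups of genes. For the enzymes this mean was 0.07 to 0.21 in IgG and -0.36 to -0.02 in combination tumours, and for the targets 0.08 to 0.48 and -0.44 to -0.01.

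**Figure D3:**
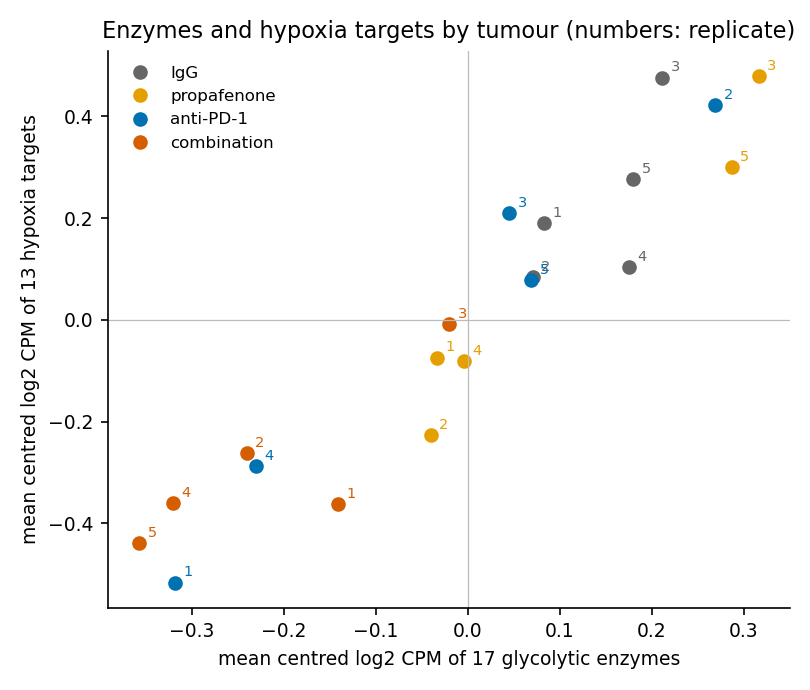
Mean centred log2 CPM of the 17 glycolytic enzymes (x axis) and of the 13 other hypoxia targets (y axis), 1 point a tumour, coloured by group and numbered by replicate. Tumours high in one were high in the other, with IgG tumours at the upper right, combination tumours at the lower left, and anti-PD-1 tumours from -0.32 to 0.27 on the x axis.

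The members varied together within groups. Over the 20 tumours, with group means removed, the median Pearson correlation of log2 CPM was 0.599 over 136 pairs of enzymes, 0.60 over 78 pairs of targets and 0.594 over 221 pairs of 1 enzyme and 1 target, against -0.002 over all pairs of genes tested. These values share libraries and depth and are given without a p. Higd1a had the highest median correlation with the enzymes (0.843), followed by Pgk1 (0.785). Pfkfb4 (-0.199), Car12 (-0.202), Epas1 (-0.186), Slc16a1 (-0.012), Ldhb (0.023), Hif1a (0.067) and Slc2a3 (0.131) did not vary with them in this way.

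Against propafenone tumours, combination tumours were lower in 4 of 38 members and higher in none, where 3.88% of all genes were called (2.21% lower, 1.67% higher). They were Hif1a, Slc16a1, Pfkm and Hk2, of which Pfkm was also called against IgG, and both comparisons share the combination tumours. Of the 38, 34 were fitted lower (51% of all genes) and 10 did not overlap, all lower (4.88% of all genes lower, 3.65% higher). Hif1a measured 459, 453, 614, 398 and 515 CPM in propafenone tumours, each above every combination tumour (values above). From propafenone to combination tumours Hif1a fell by 0.41 ± 0.10 on the log2 scale (edgeR adjusted p = 0.0310). Slc16a1 measured 184, 208, 269.8, 178 and 231 CPM in propafenone and 162, 162, 159, 167 and 176 CPM in combination tumours, and fell by 0.37 ± 0.09 (0.0350), with no overlap. Pfkm measured 94.9, 83.9, 105, 70.9 and 99.5 CPM in propafenone tumours and fell by 0.41 ± 0.11 (0.0388). Propafenone replicate 4 lay among the combination tumours for Pfkm. Hk2, the hexokinase induced in many tumours, measured 340.0, 358, 439, 361 and 425 CPM in propafenone and 296, 329, 316, 256 and 304 CPM in combination tumours, and fell by 0.36 ± 0.10 (0.0476) without overlap. For Hif1a, Slc16a1 and Hk2 the IgG tumours lay lower than the propafenone tumours on average, with log2 fold changes of 0.24, 0.20 and 0.19 in propafenone against IgG (each adjusted p = 0.913). The enzymes had a median of -0.26 with 2 called, and the targets a median of -0.47 with 0 called, 6 at an unadjusted p under 0.05.

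**Figure D4:**
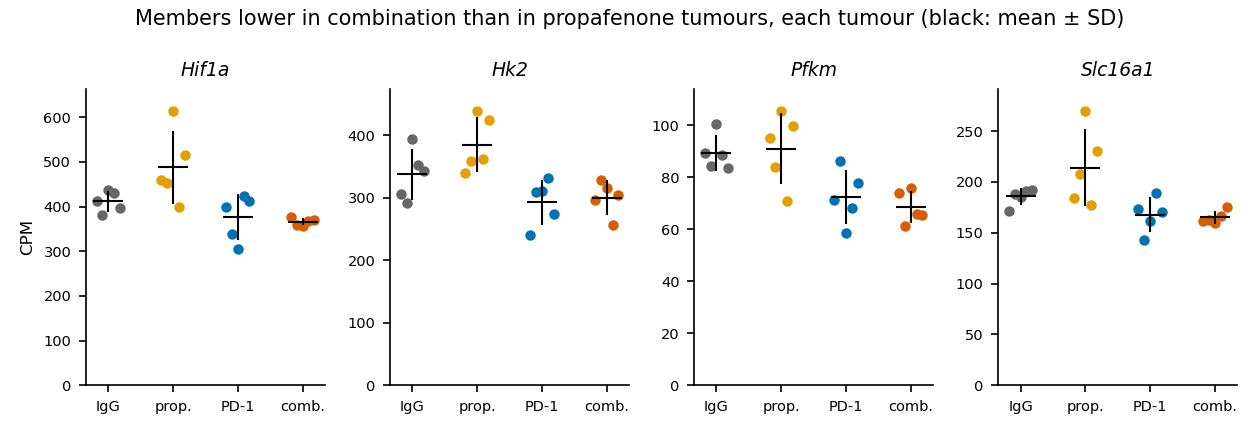
CPM of the 4 members lower in combination than in propafenone tumours, 1 point a tumour in each of the 4 groups (axes start at 0; prop. is propafenone, PD-1 is anti-PD-1, comb. is combination), with the mean ± SD in black. The propafenone tumours lie above all combination tumours for Hif1a, Hk2 and Slc16a1, and 1 propafenone tumour lies among them for Pfkm.

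Neither agent alone gave a call in edgeR fitted on all 20 tumours, among the members or among all genes (0% called). In propafenone against IgG, 26 of 38 members were fitted lower (49.1% of all genes) and 0 had groups without overlap (0.706% of all genes lower, 0.529% higher), with medians of -0.06 for enzymes and -0.11 for targets, and 3 members had an unadjusted p under 0.05. In anti-PD-1 against IgG, which shares the IgG tumours, 34 of 38 were fitted lower (50.3% of all genes) and 0 had groups without overlap (0.498% lower, 0.454% higher), with medians of -0.14 and -0.25, and 4 had an unadjusted p under 0.05. Slc16a3 had -0.45 ± 0.17 there (0.565). Anti-PD-1 tumours were spread widely: Slc16a3 ran from 258 to 571 CPM and Ndrg1 from 70.0 to 204 CPM. Replicates 1 and 4 were the lowest and replicate 2 the highest in the mean of the enzymes (-0.32, -0.23 and 0.27). Combination against anti-PD-1 tumours gave 0 calls, also 0% of all genes, with 33 of 38 members fitted lower (52.1% of all genes) and 0 without overlap (1.23% lower, 1.15% higher). It had medians of -0.22 for enzymes and -0.26 for targets and 9 members at an unadjusted p under 0.05. The interaction of both agents gave 0 calls (0% of all genes) and 31 of 38 members below 0 (51.7% of all genes), with medians of -0.12 and -0.20 and 1 member at an unadjusted p under 0.05. No other tool or setting tried called a member in these 4 comparisons (the interaction was not fitted on fewer groups), although some called genes outside the members. DESeq2 called 3 genes in propafenone against IgG, 21 in anti-PD-1 against IgG, 7 in combination against anti-PD-1 and 2 in the interaction, and edgeR without the Hbb-bs tumours called 13 in anti-PD-1 against IgG. Without IgG replicate 4 or anti-PD-1 replicate 2 edgeR called 1 gene in that comparison, and limma on log2(TPM + 1) and the fit of only the groups compared each called 1 in combination against anti-PD-1.

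Markers of other cell types also differed between the groups. Whether they went with the members from tumour to tumour was not tested. Of 14 skeletal muscle markers 9 were higher in combination than in IgG tumours, and up to 7 of them were at 0 counts in an IgG tumour. Of 12 macrophage markers 8 were higher, with sums of 42.6 to 194 CPM in IgG and 216 to 480 CPM in combination tumours. Of 6 red blood cell markers 1 was lower, with sums of 290 to 11681 CPM in IgG and 172 to 453 CPM in combination tumours. Of 6 fibroblast markers 3 were higher (93.4 to 323 and 277 to 640 CPM) and of 6 endothelial markers 1 (74.1 to 108 and 106 to 135 CPM). No T cell, keratinocyte or adipocyte marker passed. Against propafenone tumours, 4 of 14 muscle, 2 of 12 macrophage, 4 of 6 fibroblast and 2 of 6 endothelial markers were higher. In the same comparison 1 of 6 red blood cell markers was lower. Over all genes tested, 2.24% were called higher and 2.63% lower against IgG, and 1.67% and 2.21% against propafenone. Pfkm, Pkm and Aldoa are also expressed in muscle, and Hk1 and Aldoa in red blood cells. In bulk tumours, fewer cells of a type and less RNA per cell cannot be told apart.

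The member values were fitted again with the level of muscle, macrophage or red blood cell markers as a covariate, 1 at a time. The levels of fibroblast, endothelial and the other markers were not fitted. With the muscle level, 0 of 38 members and 0 of all genes were called in combination against IgG, 4 members had an unadjusted p under 0.05, and the medians were -0.09 for enzymes and 0.02 for targets. In that fit 27 of 38 members were fitted lower, in place of 36. With the macrophage level, 0 members and 0 genes were called, and the medians stayed at -0.40 and -0.54. With the red blood cell level, 0 members and 247 genes were called, and the medians were -0.23 and -0.27. Against propafenone, 2, 0 and 2 members were called with the muscle, macrophage and red blood cell level, beside 4.91%, 0.0126% and 7.95% of all genes. The marker levels differed between the groups, and the macrophage sums of IgG and combination tumours did not overlap. These fits therefore cannot tell a marker level from the treatment, and fewer calls in them do not show the part of these cells. That part was not tested. Without the 5 tumours above 1000 CPM of Hbb-bs, 7 members were called lower against IgG and 4 against propafenone, beside 6.03% and 7.05% of all genes. Slc16a3, Tpi1 and Pgam1 were then no longer called against IgG. The median of all 38 members in combination tumours was then -0.30 against IgG, -0.32 against propafenone and -0.10 against anti-PD-1. With all tumours these medians were -0.37, -0.35 and -0.22. Leaving out single tumours ended all member calls against IgG in 4 cases: IgG replicates 3 and 5 and combination replicates 4 and 5, where 5, 67, 147 and 72 of all genes were called. Against propafenone no member was called without any 1 of the 5 combination tumours, or without propafenone replicate 3 or 5. Of all genes, 27 to 133 were called without a combination tumour, and 4 and 23 without these propafenone tumours. The calls of single members held unequally. Over 20 fits that each left out 1 tumour, Eno1, Pkm and Ldha were called against IgG in 16, Ankrd37 and Higd1a in 13, Gpi1 and Slc16a3 in 12, Pgam1 in 10, Pfkm in 5 and Tpi1 in 4. Over 14 other settings, Eno1, Pkm, Ankrd37, Higd1a and Gpi1 were called in 11, Ldha in 10, Slc16a3 in 8, Pfkm in 5, Pgam1 in 4 and Tpi1 in 3. Against propafenone the same counts were 13 and 10 for Hif1a, 11 and 9 for Slc16a1, 8 and 7 for Pfkm, and 6 and 4 for Hk2.

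**Figure D5:**
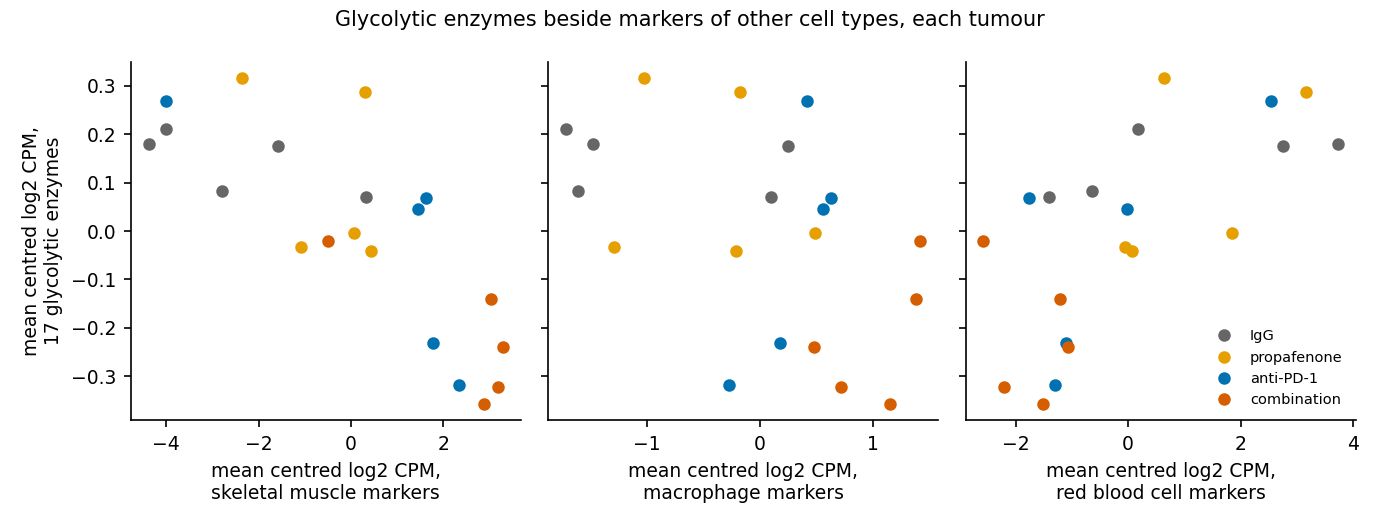
Mean centred log2 CPM of the 17 glycolytic enzymes (y axis) against that of markers of skeletal muscle, macrophages and red blood cells (x axes), 1 point a tumour, coloured by group. The 4 combination tumours with the most muscle markers and anti-PD-1 replicates 1 and 4 lie lowest in enzymes.

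Other genes of both pathways were read from lists of 23 glycolysis and 28 hypoxia genes outside the members. Of 19 glycolysis genes tested 3 were lower in combination than in IgG tumours (2.63% of all genes) and 0 higher. Gys1, glycogen synthase, fell by 0.81 ± 0.17 on the log2 scale from 353 ± 37.9 to 202 ± 33.3 CPM (mean ± SD, n = 5; edgeR adjusted p = 0.0206). Pgm1, which links glycogen to glycolysis, fell by 0.58 ± 0.13 (0.0240) and Gbe1, the glycogen branching enzyme, by 0.71 ± 0.17 (0.0292). The smallest p on the higher side was that of Hk3, a hexokinase of myeloid cells, at 1.64 (0.0671). Of 28 hypoxia genes 5 were lower and 1 higher. Bnip3l, a mitophagy receptor, fell by 0.64 ± 0.11 from 278 ± 27.8 to 178 ± 25.1 CPM (0.0122). Pdk1, a kinase that inhibits pyruvate dehydrogenase, fell by 0.56 ± 0.12 (0.0212) and Bnip3, also a mitophagy receptor, by 0.78 ± 0.18 (0.0261). Ero1l, an oxidase of protein folding, fell by 1.05 ± 0.28 (0.0393) and Vhl, which removes HIF alpha, by 0.59 ± 0.16 (0.0449). Ppp1r3c, a glycogen-targeting phosphatase subunit, rose by 4.12 ± 0.88 (0.0206), from 0.040 ± 0.056 to 0.738 ± 0.339 CPM. Pgm1, Gbe1, Pdk1, Bnip3, Ero1l and Vhl were named after their values were seen. Against propafenone tumours, 1 of 19 glycolysis genes and 7 of 28 hypoxia genes were lower (2.21% of all genes) and 0 were higher, with the smallest p at Gbe1 (-0.73, 0.0311) and Bnip3l (-0.51, 0.0269).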

How the data were processed

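The authors deposited 1 table of expected counts and 1 of TPM per gene for 20 tumours (4 groups of 5). The counts are stored as whole numbers, so none was rounded; 4 was found in 11581 cells of the table and its neighbours 3 and 5 in 5505 and 5409, so 1 fragment may stand for several counts and the totals may overstate depth. Read checks with FastQC, alignment software HISAT2 2.2.1, SAMtools 1.9 and build GRCm38 (mm10) are listed in the submitters' processing notes; the counting tool, annotation and strand are not given in the sources used here. The labels' protocols name a SMARTER mRNA-seq kit. Totals were 55985437 to 64514815 counts per tumour, and 0 columns were left unused.

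In R 4.3.3, genes were filtered with filterByExpr (15875 of 32285 kept), scaled by TMM, and tested with edgeR 4.0.16 (robust quasi-likelihood) over all 20 tumours, with Benjamini-Hochberg adjustment over all genes tested and a threshold of 0.05. CPM values use TMM library sizes, and log2 CPM a prior count of 2. TPM deposited by the authors was used for levels between genes, and with limma 3.58.1 at pseudocounts of 1 and 0.1 as an alternative. DESeq2 1.42.0, voom, other scalings, marker covariates, a replicate block and single tumours left out were also tried. The edgeR fit was tested on simulated data. In combination against IgG it called 42% of 100 genes changed 1.5-fold and 67% of 100 changed 2-fold. In combination against propafenone it called 45% and 66%. Smaller changes and the other comparisons were not simulated, so a missing call does not show that a gene was unchanged. Counts divided by 4 gave 7 and 3 members called in combination against IgG and propafenone, beside 5.34% and 5.12% of all genes. Aldoa stands on 2 rows, and the one with 184915 to 259710 counts was used; the other had 8 to 47. Values per tumour are given for members called in any pairwise comparison and for the smallest p in combination against IgG in each of 9 roles, finer than the classes of the text (glucose transporters, upper enzymes, lower enzymes, lactate enzymes and carriers, Pfkfb enzymes, HIF subunits, HIF hydroxylases, pH enzymes, other targets). Genes outside the members are the smallest p in each direction of each list, or were named after their values were seen. The members and lists were chosen with earlier results of these data known.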

Additional observations from a re-analysis of the deposited data

Results flagged for a closer look

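In each group of 5 tumours, the gap of the highest or lowest tumour to its neighbour was set against the range of the group. Of 152 such groups (38 members in 4 groups), 4 had a gap over the 95% limit of Dixon's test, and chance gives about 1 in 20. Hk1 was low in IgG replicate 4, at 510.2 CPM, where the next tumour had 577.9. Egln3 was high in combination replicate 3, at 10.3 CPM against 4.65 in the next. Ankrd37 was high in the same tumour, at 5.91 CPM against 4.40. Kdm3a was high in anti-PD-1 replicate 3, at 228 CPM against 168 in the next.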

How the results depend on the processing

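In combination against IgG tumours, where 10 members were called, the count was 6 with no filter on low counts (2.07% of all genes called), 16 with DESeq2 (8.94%), 5 with limma on log2(TPM + 0.1) (5.09%), 21 when only the groups compared were fitted (11.1%), and 0 with the muscle, macrophage or red blood cell level as a covariate. With single tumours left out it ran from 0 to 14 (share of all genes called in parentheses). It was 0 without IgG replicate 3 (0.0311%) or 5 (0.417%) or combination replicate 4 (0.918%) or 5 (0.449%). It was 3 without combination replicate 1 (1.18%) or 2 (1.91%), 4 without IgG replicate 1 (1.26%) and 5 without IgG replicate 4 (3.84%). It was 14 without anti-PD-1 replicate 1 (4.77%) or 2 (6.64%). In combination against propafenone tumours, where 4 members were called, the count was 2 with DESeq2's size factors (2.76% of all genes called), 0 with library totals (2.19%), 13 with DESeq2 (1 of them higher; 9.23%), 1 and 0 with limma on log2(TPM + 1) and log2(TPM + 0.1) (4.31% and 3.06%), 9 when only the groups compared were fitted (7.12%), 2 with the muscle or red blood cell covariate and 0 with the macrophage covariate. With single tumours left out it ran from 0 to 11 (number of all genes called in parentheses, 616 with all tumours). No member was called without any of combination replicates 1 to 5 (27 to 133) or without propafenone replicate 3 (4) or 5 (23). The count was 1 without IgG replicate 4 (392) or 5 (405). Leaving out IgG replicate 1 (419), propafenone replicate 1 (230) or anti-PD-1 replicate 5 (405) gave 2. Leaving out propafenone replicate 4 (1882) gave 10, and anti-PD-1 replicates 1 (584) and 2 (959) gave 9 and 11. Replicate numbers did not pair the tumours: 30 pairs with the same number had a mean correlation of -0.00694 (-0.41 to 0.369), and 7 of 20 tumours correlated best with their own number. With the replicate number as a block the counts were 13 and 9 (5.22% and 4.25% of all genes called). The median of the enzymes against IgG, -0.38, was -0.26 with limma on TPM at either pseudocount, -0.086 with the muscle covariate and -0.23 with the red blood cell covariate. The median of the targets, -0.56, was 0.022 and -0.27 with these covariates, and against propafenone it moved from -0.47 to -0.12 with the muscle covariate. With that covariate 9 of the 36 members below 0 against IgG turned above 0, and Car9 (0.058) and Egln1 (0.022) are those of them with values per tumour above. The other 343 of 350 class medians moved by less than the spread between tumours, the pooled SD of the class mean in the groups compared. Some medians were smaller than this spread, so a change of sign can stay under it. The targets' median in propafenone against IgG was -0.11, beside SDs of 0.16 in IgG and 0.30 in propafenone tumours. In that comparison the median of all 38 members was -0.09, and 0.06 with the muscle covariate. In combination against IgG, the median of all genes was 0.10 in log2(TPM + 0.1), beside the enzymes' -0.26. In the main fit it was -0.01, beside -0.38. Without the 5 tumours above 1000 CPM of Hbb-bs, an alternative added after seeing the data, 7 and 4 members were called. The fits without a single tumour and those of only the groups compared hold fewer samples, and the fit without a filter tests 22372 genes. The cause of these differences was not tested.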
